A study of Mus musculus with 8 samples.

Results

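The genes described here encode the machinery that copies DNA in S phase. Of 49 genes listed by name for this task, 9 measured ones license origins, 6 fire them and activate the helicase, 5 encode polymerase or primase subunits, 8 encode the sliding clamp, its loader and the proteins that bind or join DNA strands, 5 supply nucleotides and 4 act on chromatin behind the fork, and E2f1 encodes a transcription factor of the G1 to S transition. The list was made by gene name and role, but earlier results of these data were known when it was chosen. A gene was measured when a probe named to it was detected on at least 2 of 8 arrays at a detection p under 0.01, which left 38 of the 49 genes, among 7357 genes tested in all. Gins1, Gins2 and Rfc3 had no named probe, and the named probes of Orc1, Orc2, Gmnn, Pola1, Prim1, Pole2, Hells and Slbp were detected on none of the 8 arrays. Of the 38 measured genes, 29 rest on 1 kept probe and 9 on more than 1, and 36 were detected on all 8 arrays. Dut and Gins3 were each detected on 7, with 1 mono-culture PLX4720 array missing.

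The RNA came from the mouse melanoma line 5555-mEGFP, which carries a green fluorescent tag, on Illumina mouse BeadChips, with 2 arrays in each of 4 groups. The cells were grown alone (mono-culture) or mixed with MAF2-mCherry cells, a line of melanoma-associated fibroblasts with a red tag (co-culture), and both cultures received for 24 h either 0.1% DMSO, the solvent control, or PLX4720, an inhibitor of mutant BRAF. The labels give the PLX4720 dose as 1 mM, the study's text gives none, and micromolar may have been intended, which the sources do not settle. From co-cultures the green fraction was isolated by cell sorting, and whether mono-cultures were sorted too is not stated. The labels give no genotype for the line and do not say whether replicates are separate cultures, so p-values measure the spread between arrays, which may be technical. That spread is estimated from 2 arrays a group, pooled over the 4 groups, and this small number limits the precision of every value below.

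Replicate arrays correlated at r of 0.990 to 0.995 across the genes tested, and 37.96% to 39% of probes were detected per array. The melanocyte genes Mitf, Mlana, Pmel, Tyr, Dct and Tyrp1 were detected on none of the 8 arrays and Sox10 had no named probe, so the tissue label could not be checked against melanocyte markers. Of 12 fibroblast markers, 7 were measured, and Dcn, Lum, Thy1, Fap and Postn were detected on no array. The summed level of those 7, on the linear intensity scale, was 1040 and 1267 on the mono-culture DMSO arrays, 617.5 and 588.7 in co-culture DMSO, 13940 and 6535 in mono-culture PLX4720 and 8274 and 8773 in co-culture PLX4720. In neither treatment did the co-culture arrays lie above both mono-culture arrays.

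Replication begins in G1, when the origin recognition complex, Cdc6 and Cdt1 load the MCM helicase onto origins as an inactive ring. At the start of S phase the Cdc7 kinase with its activator Dbf4, together with cyclin-dependent kinases, switches the ring on by adding Cdc45 and the GINS complex, and polymerases alpha, delta and epsilon then copy the strands while the clamp Pcna holds them in place. Many of these genes are known targets of E2F factors, which the retinoblastoma protein restrains until cyclin D and cyclin E kinases inactivate it, and in melanoma cells with mutant BRAF the ERK pathway feeds into cyclin D1.

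Because the genes moved together, their promoters were read for E2F words, with RefSeq windows (build GRCm38.p6) from 250 bases before to 50 after each start. A window was at hand for 33 of the 38 measured genes, and not for Mcm4, Gins4, Prim2, Pole and Rfc2. The words searched were TTTGGCGC, TTTCCCGC, TTTCGCGC and TTTGCCGC, on either strand and with overlaps allowed. They occurred in 11 of the 33 (33.3%), namely Cdc6, Cdca7, Cdt1, Gins3, Lig1, Mcm3, Mcm5, Mcm6, Mcm7, Pold1 and Uhrf1, against 4.99% of 6068 tested genes and 2.6% of all 27025 genes with a window. The word CCAAT stood in 51.5% of the 33 and in 44% of the tested genes, and TTTGAA, the core of the CHR element of mitotic genes, in 21.2% and 13.6%. In every share a gene with several windows counted when any of them held the word, as for the E2F words of Lig1, Mcm7 and Uhrf1. A match is only a description of the letters and shows no bound factor. The sequences below are the 200 bases before the start of 3 genes that carry a word and passed the tests of PLX4720 in mono-culture and of co-culture under PLX4720 (Cdca7, Cdc6 and Uhrf1), of Mcm6, which carries 3 words and whose brightest probe passed in no comparison, and of Rrm2, which passed the same tests as the first 3 without a word. Capitals mark the E2F words, which overlap in part in Mcm6.
Cdca7, chr2:72476019-72476218, plus strand: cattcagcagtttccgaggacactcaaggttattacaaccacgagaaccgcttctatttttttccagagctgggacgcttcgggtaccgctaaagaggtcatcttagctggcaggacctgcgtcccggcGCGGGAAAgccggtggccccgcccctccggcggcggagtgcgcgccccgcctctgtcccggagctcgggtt
Cdc6, chr11:98907951-98908150, plus strand: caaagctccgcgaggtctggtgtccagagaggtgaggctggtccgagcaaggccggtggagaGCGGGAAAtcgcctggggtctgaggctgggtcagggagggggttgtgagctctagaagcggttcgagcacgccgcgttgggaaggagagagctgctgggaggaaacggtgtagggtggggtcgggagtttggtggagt
Uhrf1, chr17:56304113-56304312, plus strand: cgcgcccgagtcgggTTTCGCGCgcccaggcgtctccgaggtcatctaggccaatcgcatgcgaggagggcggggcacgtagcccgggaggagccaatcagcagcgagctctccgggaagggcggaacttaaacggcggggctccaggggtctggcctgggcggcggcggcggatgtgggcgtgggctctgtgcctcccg
Mcm6, chr1:128359706-128359905, minus strand: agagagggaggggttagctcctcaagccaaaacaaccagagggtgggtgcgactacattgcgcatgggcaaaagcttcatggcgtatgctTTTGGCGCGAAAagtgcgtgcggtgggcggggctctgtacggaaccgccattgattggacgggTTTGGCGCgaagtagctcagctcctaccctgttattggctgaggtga
Rrm2, chr12:24708054-24708253, plus strand: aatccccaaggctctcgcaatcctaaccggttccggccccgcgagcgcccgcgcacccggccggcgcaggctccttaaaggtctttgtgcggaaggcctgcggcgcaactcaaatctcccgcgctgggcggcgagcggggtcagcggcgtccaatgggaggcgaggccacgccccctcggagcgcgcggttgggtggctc
In Cdca7 the word lay 71 bases before the start, in Cdc6 138 and in Uhrf1 185. Uhrf1 has 2 windows, and the one not printed held no word. In mono-culture the median log2 fold change for PLX4720 against DMSO was -0.80 over the 11 genes with a word and -1.02 over the 22 without. The fall passed the test for 10 of the 11 and 21 of the 22.

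PLX4720 lowered nearly the whole set in mono-culture. Of the 38 genes, 34 fell and none rose at an adjusted p under 0.05 (limma, Benjamini-Hochberg over all 7357 genes), against 18.6% of all genes that fell. In what follows, a value with ± is a log2 fold change with its standard error. All 38 estimates were negative, from -2.49 to -0.21 on the log2 scale, with a median of -0.80 (1.74-fold lower) beside 0.01 over all genes, and in 37 of the 38 both PLX4720 arrays lay below both DMSO arrays, as in 34.9% of all genes. In co-culture, measured on 4 other arrays, 24 of the 38 fell and none rose, against 12.7% of all genes. Again all 38 estimates were negative (34 with median scaling in place of quantile normalization, 37 with the mean of a gene's probes, 34 without co-culture PLX4720 replicate 2, and 36 and 37 without co-culture DMSO replicate 1 and 2), from -1.23 to -0.01, with a median of -0.62 (1.54-fold lower), and in 34 the PLX4720 arrays lay below without overlap, as in 32.5% of all genes. Measured per array as the median difference of the 38 genes from the mono-culture DMSO mean, the mono-culture PLX4720 arrays stood at -1.04 and -0.83, the co-culture PLX4720 arrays at -0.47 and -0.65, and the co-culture DMSO arrays at 0.03 and 0.00. In bulk RNA, fewer cells in S phase and less of each transcript per cell cannot be told apart.

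**Figure D1:**
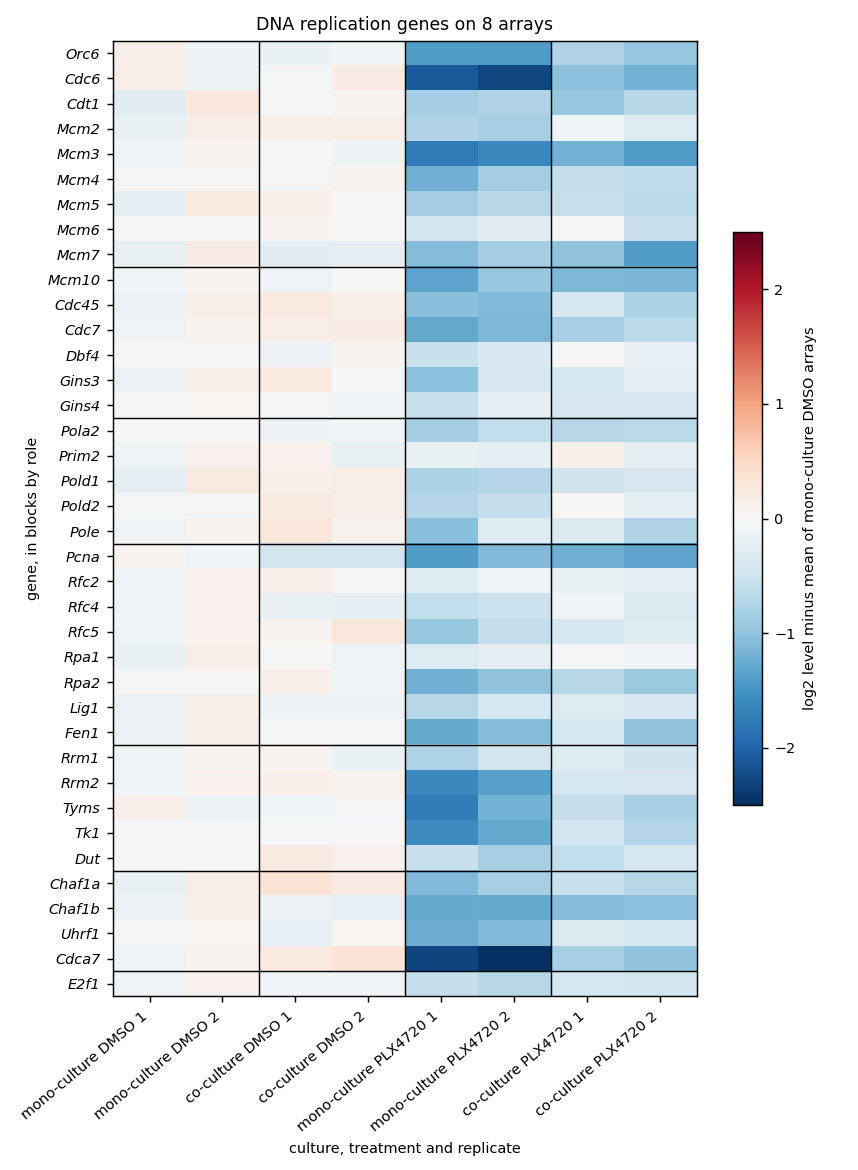
Log2 level of the 38 measured DNA replication genes (rows, in blocks by role) on the 8 arrays (columns), as the difference from the mean of the mono-culture DMSO arrays, blue for lower and red for higher. The mono-culture PLX4720 columns are blue almost throughout, deepest for Cdca7 and Cdc6, and the co-culture PLX4720 columns are paler.

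Among the 9 licensing genes, 8 fell in mono-culture and 7 in co-culture. In mono-culture, with the main processing, the largest fall was that of Cdc6, which loads the MCM ring. Its log2 level was 8.24 and 7.93 on the mono-culture DMSO arrays, 8.04 and 8.26 in co-culture DMSO, 5.97 and 5.81 in mono-culture PLX4720 and 7.06 and 6.90 in co-culture PLX4720. The 4 drug arrays lay below all 4 DMSO arrays, and the co-culture drug arrays lay above the mono-culture ones. Cdc6 fell 4.57-fold in mono-culture (-2.19 ± 0.15, adjusted p = 1.61e-05) and 2.25-fold in co-culture (-1.17 ± 0.15, adjusted p = 0.000639). Mcm3, a subunit of the ring, was at 8.73 and 8.86 in mono-culture DMSO, 8.79 and 8.67 in co-culture DMSO, 7.04 and 7.18 in mono-culture PLX4720 and 7.61 and 7.39 in co-culture PLX4720. It fell 3.21-fold (-1.68 ± 0.13, adjusted p = 3.57e-05) and 2.34-fold (-1.23 ± 0.13, adjusted p = 0.000247), and in co-culture its p was the smallest of the 38 genes. Orc6, a subunit of the origin recognition complex, read 11.38 and 11.11, 11.08 and 11.17, 9.84 and 9.82 and 10.49 and 10.30 in the same order of groups. Its drug arrays lay below all DMSO arrays, a 2.65-fold fall in mono-culture (-1.41 ± 0.14, adjusted p = 9.19e-05) and 1.66-fold in co-culture (-0.73 ± 0.14, adjusted p = 0.00446).

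The remaining ring subunits fell by less. Mcm7 read 8.91 and 9.28 in mono-culture DMSO, 8.81 and 8.86 in co-culture DMSO, 8.01 and 8.26 in mono-culture PLX4720 and 8.09 and 7.71 in co-culture PLX4720, with falls of nearly the same size in both cultures (-0.97 ± 0.18, adjusted p = 0.0025, and -0.93 ± 0.18, adjusted p = 0.00465). Mcm4 fell 2.05-fold (-1.03 ± 0.14, adjusted p = 0.000475) and 1.59-fold (-0.67 ± 0.14, adjusted p = 0.00705). Of its dimmer probes, each detected on 3 arrays, ILMN_2752010 passed only in mono-culture (-0.94, adjusted p over probes = 0.00317) and ILMN_2752009 only in co-culture (-0.99, adjusted p over probes = 0.00851). Mcm5 fell by 0.78 and 0.68 on the log2 scale and Cdt1, the partner of Cdc6 in loading, by 0.80 and 0.87, mono-culture first. Mcm2 fell 1.73-fold in mono-culture (-0.79 ± 0.15, adjusted p = 0.00275), and its estimate in co-culture did not pass (-0.38 ± 0.15, adjusted p = 0.0869). Mcm6 passed in neither culture on its brightest probe, at -0.36 (adjusted p = 0.146) and -0.32 (adjusted p = 0.219), although both PLX4720 arrays lay below both DMSO arrays in each. Its 3 kept probes differed. In mono-culture only probe ILMN_1217331 passed over all probes (-0.42, adjusted p = 0.032), and in co-culture only probe ILMN_1233857 (-0.84, adjusted p = 0.00466). The latter was also at -0.31 in co-culture against mono-culture under PLX4720, where the brightest probe was at 0.07, and neither passed.

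All 6 genes of origin firing and helicase activation fell in mono-culture and 3 in co-culture. Cdc7, the kinase that switches on the MCM ring, read 9.11 and 9.27 in mono-culture DMSO, 9.36 and 9.38 in co-culture DMSO, 7.91 and 8.07 in mono-culture PLX4720 and 8.36 and 8.53 in co-culture PLX4720, a 2.29-fold (-1.20 ± 0.13, adjusted p = 0.000163) and a 1.90-fold fall (-0.93 ± 0.13, adjusted p = 0.000953). Mcm10, which helps the ring to open and move, fell alike in both cultures. Its levels were 10.02 and 10.15 and 9.99 and 10.08 in DMSO, mono-culture first, and 8.77 and 9.13 and 8.97 and 8.94 in PLX4720, a fall of 2.19-fold (-1.13 ± 0.15, adjusted p = 0.000396) and 2.11-fold (-1.08 ± 0.15, adjusted p = 0.000789). Its second kept probe fell by 1.31 and 1.13 on the log2 scale. Cdc45, a part of the moving helicase, fell 2.10-fold and 1.75-fold (adjusted p = 0.000757 and 0.00507). Dbf4, the activator of Cdc7, fell in mono-culture (-0.47 ± 0.14, adjusted p = 0.0234) and was at -0.07 in co-culture (adjusted p = 0.737), where its arrays overlapped. The GINS subunits Gins3 and Gins4 fell in mono-culture (-0.73 and -0.40, adjusted p = 0.0193 and 0.0421) and did not pass in co-culture (-0.46 and -0.37, adjusted p = 0.127 and 0.0703).

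Of the 5 polymerase and primase genes, 4 fell in mono-culture and 3 in co-culture. Pola2, a subunit of the polymerase alpha that starts new strands, read 8.74 and 8.71 in mono-culture DMSO, 8.61 and 8.66 in co-culture DMSO, 7.89 and 8.12 in mono-culture PLX4720 and 8.02 and 8.05 in co-culture PLX4720. The arrays of the 2 treatments did not overlap, and the fall was 1.65-fold (-0.73 ± 0.13, adjusted p = 0.00186) and 1.51-fold (-0.60 ± 0.13, adjusted p = 0.00753). Pold1 and Pole, the catalytic subunits of polymerases delta and epsilon, fell by 0.76 and 0.68 on the log2 scale in mono-culture (adjusted p = 0.00459 and 0.0403) and by 0.60 and 0.74 in co-culture (adjusted p = 0.0193 and 0.0394). Pold2, the accessory subunit of polymerase delta, fell in mono-culture (-0.67 ± 0.14, adjusted p = 0.00416), while its co-culture estimate of -0.29 did not pass (adjusted p = 0.14). Prim2, the large primase subunit, passed in neither culture (-0.21 and -0.02, adjusted p = 0.342 and 0.934), and its second kept probe was at 0.14 in co-culture, the opposite sign.

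The clamp, its loader and the strand-binding and joining genes held both large and small changes, with 6 of 8 lower in mono-culture and 4 in co-culture. Pcna, the sliding clamp, read 7.11 and 6.98 in mono-culture DMSO, 6.58 and 6.57 in co-culture DMSO, 5.64 and 5.94 in mono-culture PLX4720 and 5.83 and 5.72 in co-culture PLX4720. It fell 2.39-fold (-1.26 ± 0.14, adjusted p = 0.000174) and 1.74-fold (-0.80 ± 0.14, adjusted p = 0.0029), and its co-culture DMSO arrays already lay below the mono-culture DMSO arrays. Rpa2, a subunit of the complex that coats single-stranded DNA, was at 8.69 and 8.76, 8.86 and 8.66, 7.53 and 7.72 and 8.02 and 7.80 in the same order, and fell 2.15-fold (-1.11 ± 0.14, adjusted p = 0.00037) and 1.81-fold (-0.85 ± 0.14, adjusted p = 0.00222). A dimmer Rpa2 probe, detected on 3 arrays, fell in mono-culture and was at -0.20 in co-culture (adjusted p over probes = 0.424). Rpa1, its large partner, did not pass in mono-culture or co-culture (-0.28 and -0.01, adjusted p = 0.141 and 0.959). Fen1, which trims the flaps between lagging-strand fragments, fell 2.25-fold (-1.17 ± 0.19, adjusted p = 0.00125) and 1.61-fold (-0.68 ± 0.19, adjusted p = 0.0242), and Lig1, which seals them, passed on its brightest probe in mono-culture and not in co-culture (-0.58 and -0.25 in co-culture, adjusted p = 0.0126 and 0.24). Of its other 3 kept probes, ILMN_2627660 passed in both cultures (-0.64 and -0.51, adjusted p over probes = 0.00624 and 0.0248) and the other two in neither.

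The clamp loader subunits moved unequally. Rfc5 fell in both cultures (-0.78 and -0.55, adjusted p = 0.00416 and 0.0285). Rfc4 read 9.16 and 9.39 in mono-culture DMSO, 9.09 and 9.06 in co-culture DMSO, 8.66 and 8.73 in mono-culture PLX4720 and 9.19 and 8.92 in co-culture PLX4720, so the drug arrays lay below all DMSO arrays in mono-culture, while in co-culture 1 lay above and 1 below both DMSO arrays of that culture. It fell in mono-culture (-0.58 ± 0.14, adjusted p = 0.0103) and was at -0.02 in co-culture (adjusted p = 0.937). Rfc2 passed in neither (-0.21 and -0.28, adjusted p = 0.252 and 0.16), and was the gene of the 38 whose arrays overlapped between treatments in mono-culture.

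All 5 nucleotide supply genes fell in mono-culture and 4 in co-culture. Rrm2, the small subunit of ribonucleotide reductase, which makes deoxyribonucleotides, read 8.83 and 9.06 in mono-culture DMSO and 9.08 and 9.03 in co-culture DMSO. Under PLX4720 it read 7.33 and 7.59 in mono-culture and 8.49 and 8.52 in co-culture, a 2.80-fold (-1.48 ± 0.14, adjusted p = 7.41e-05) and a 1.46-fold fall (-0.55 ± 0.14, adjusted p = 0.0176). Tk1, the thymidine kinase of the salvage route, was at 11.17 and 11.24, 11.17 and 11.19, 9.62 and 9.92 and 10.72 and 10.47 in the order used above, and fell 2.70-fold (-1.44 ± 0.15, adjusted p = 0.000116) and less in co-culture (-0.59 ± 0.15, adjusted p = 0.0161). Tyms, which makes thymidylate from deoxyuridylate, was at 10.69 and 10.44, 10.49 and 10.52, 8.81 and 9.38 and 9.97 and 9.76, and fell 2.76-fold (-1.47 ± 0.19, adjusted p = 0.000402) and 1.56-fold (-0.64 ± 0.19, adjusted p = 0.0327). In these 3 genes the co-culture drug arrays stood between the mono-culture drug arrays and the DMSO arrays, without overlap. Their second kept probes had the same sign in both drug comparisons, though the second Tk1 probe did not pass in co-culture (adjusted p over probes = 0.118). Dut, which removes dUTP, fell by nearly the same amount in both cultures (-0.70 and -0.68, adjusted p = 0.00393 and 0.00641), and Rrm1, the large reductase subunit, fell in mono-culture only by the test (-0.61 and -0.35, adjusted p = 0.012 and 0.125).

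The 4 chromatin genes held the largest change of the set. Cdca7, a zinc finger protein that works with the remodeller Hells, read 10.33 and 10.49 in mono-culture DMSO, 10.63 and 10.75 in co-culture DMSO, 8.11 and 7.74 in mono-culture PLX4720 and 9.58 and 9.39 in co-culture PLX4720. It fell 5.60-fold in mono-culture (-2.49 ± 0.16, adjusted p = 8.69e-06) and 2.31-fold in co-culture (-1.21 ± 0.16, adjusted p = 0.000599). Uhrf1, which reads hemimethylated DNA and guides its methylation after the fork, was at 10.99 and 11.09, 10.84 and 11.09, 9.80 and 9.94 and 10.68 and 10.60. It fell 2.25-fold in mono-culture (-1.17 ± 0.14, adjusted p = 0.00022), and its co-culture estimate did not pass (-0.32 ± 0.14, adjusted p = 0.106). Chaf1a and Chaf1b, subunits of the CAF-1 complex that deposits histones on new DNA, fell in both cultures. Chaf1b read 10.08 and 10.32, 10.08 and 9.99, 8.93 and 8.91 and 9.12 and 9.17, a 2.42-fold (-1.28 ± 0.13, adjusted p = 0.000106) and 1.85-fold fall (-0.89 ± 0.13, adjusted p = 0.00106). Chaf1a read 8.84 and 9.18, 9.35 and 9.22, 7.91 and 8.18 and 8.46 and 8.30, a fall of 1.95-fold and 1.87-fold (adjusted p = 0.00141 and 0.00308). E2f1 itself read 10.68 and 10.90, 10.73 and 10.72, 10.19 and 10.08 and 10.35 and 10.33, a 1.58-fold fall in mono-culture (-0.66 ± 0.13, adjusted p = 0.00318) and an estimate in co-culture just outside the threshold (-0.38 ± 0.13, adjusted p = 0.0519).

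**Figure D2:**
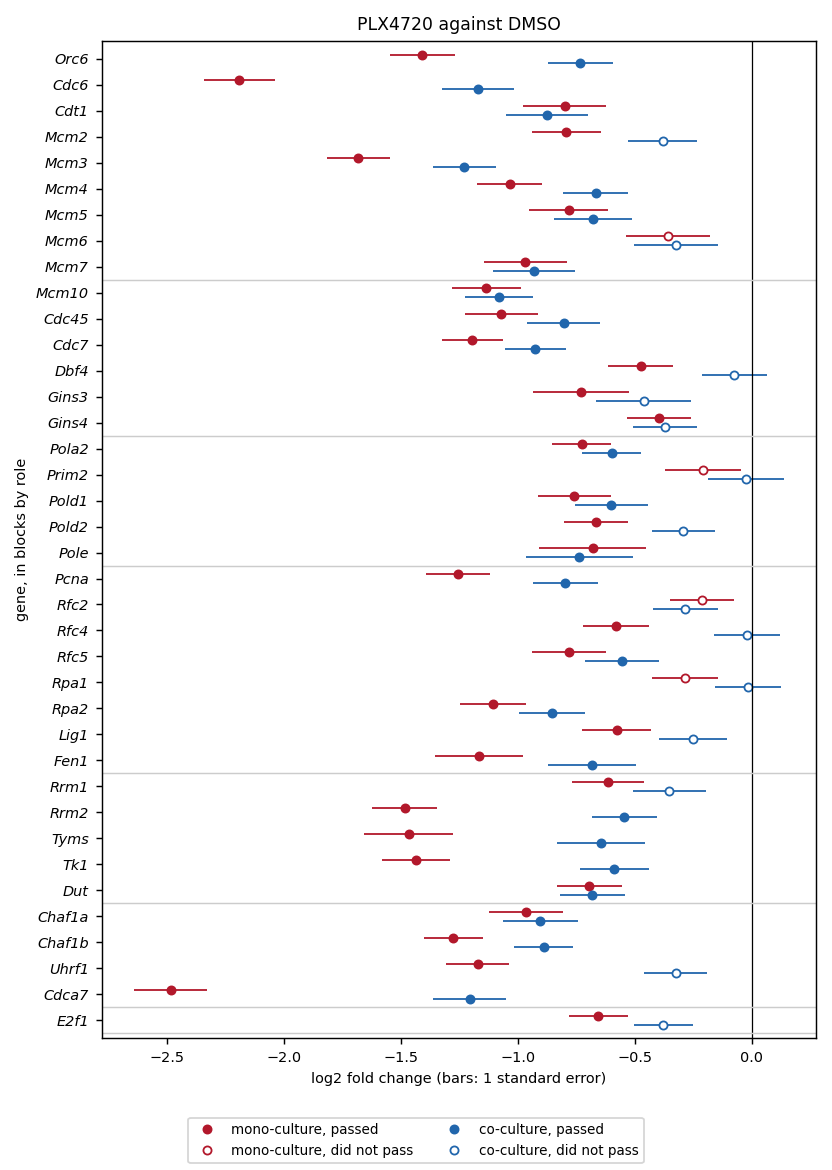
Log2 fold change of PLX4720 against DMSO for each of the 38 genes (rows, in blocks by role) in mono-culture (red) and co-culture (blue), with bars of 1 standard error, filled where the adjusted p was under 0.05. All points lie left of 0, though 4 of the blue ones would not with median scaling or without co-culture PLX4720 replicate 2, 34 red and 24 blue ones are filled, and Cdca7 and Cdc6 lie farthest left in red.

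The mono-culture calls rested on more than 1 array for most genes. Leaving out each of the 8 arrays in turn, 27 of the 34 kept their call every time, and the 7 that lost it at least once were Dbf4, Gins3, Gins4, Lig1, Pole, Rfc4 and Rrm1. The count was lowest, at 27, without mono-culture DMSO replicate 2 and without mono-culture PLX4720 replicate 1. Without that drug array the adjusted p was 0.128 for Dbf4, 0.136 for Gins3, 0.259 for Gins4, 0.0895 for Lig1, 0.277 for Pole, 0.0549 for Rfc4 and 0.0877 for Rrm1. In co-culture 13 of the 24 calls held each time, and the count dropped to 15 without co-culture DMSO replicate 1, to 14 without its replicate 2 and to 16 without co-culture PLX4720 replicate 2. The 11 calls lost at least once were those of Dut, Fen1, Mcm4, Mcm5, Pola2, Pold1, Pole, Rfc5, Rrm2, Tk1 and Tyms. Without co-culture DMSO replicate 1 the adjusted p was 0.0606 for Dut, 0.112 for Fen1, 0.105 for Mcm5, 0.0943 for Pold1, 0.188 for Pole, 0.0677 for Rfc5, 0.11 for Rrm2, 0.0827 for Tk1 and 0.121 for Tyms, and without its replicate 2 it was 0.0521 for Mcm4 and 0.0616 for Pola2. The called genes stayed below 0 in each case.

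In DMSO no difference between the cultures was detected for these genes. None of the 38 passed in co-culture against mono-culture, beside 1.66% of all genes, and 1 was lower at an unadjusted p under 0.05, beside 6.97% of all genes. Estimates were split evenly, 19 above and 19 below 0, with a median of 0.00, and 3 signs turned with median scaling, 4 with the mean of probes, 10 and 9 without mono-culture DMSO replicate 1 and 2, and 4 and 5 without co-culture DMSO replicate 1 and 2. Kept probes of Lig1, Mcm4, Mcm10, Rpa2 and Tk1 differed in sign here. The gene with the smallest p was Pcna, 1.38-fold lower in co-culture (-0.47 ± 0.14, adjusted p = 0.15, unadjusted p = 0.00739). Next came Cdca7 at 0.28 (adjusted p = 0.473), Chaf1a at 0.28 (adjusted p = 0.498) and Mcm7 at -0.27 (adjusted p = 0.563), then Rfc4 at -0.20, Pold2 at 0.19, Cdc7 at 0.18 and Chaf1b at -0.16. The 95% interval lay within 0.5 of 0 on the log2 scale for 29 of the 38 genes, and the widest limits were -0.78, for Pcna, and 0.69, for Pole.

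Under PLX4720 the same comparison gave higher levels in co-culture. Of the 38 genes, 8 were higher and none was lower at an adjusted p under 0.05, against 3.89% of all genes that were higher, and 17 were higher at an unadjusted p under 0.05, against 13.9% of all genes. The median was 0.32 on the log2 scale (1.24-fold) and 34 estimates were above 0, beside 51.2% of all genes (2 of the 38 signs turned with median scaling, which moved the median of all genes to 0.10 here, 1 with the mean of probes, 6 without co-culture PLX4720 replicate 1, 5 and 3 without mono-culture PLX4720 replicate 1 and 2, and 1 without co-culture PLX4720 replicate 2). In 25 of the 38 (65.8%) the lower co-culture array exceeded the higher mono-culture array, beside 27.5% of all genes. In co-culture the PLX4720 mean was below the DMSO mean for all 38 genes. The 34 genes above 0 are therefore by construction those whose co-culture PLX4720 mean lay between the mono-culture PLX4720 mean and the co-culture DMSO mean. The exceptions were Mcm7, Cdt1, Gins4 and Pcna, whose co-culture mean under the drug was below the mono-culture one (-0.23, -0.04, -0.03 and -0.01, none called). This comparison shares the drug arrays with those above, so its direction is not independent of them.

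The 8 genes that passed were Cdca7, Rrm2, Cdc6, Uhrf1, Tk1, Pold2, Orc6 and Tyms, that is 2 of the 9 licensing genes, 1 of the 5 polymerase genes, 3 of the 5 nucleotide supply genes and 2 of the 4 chromatin genes, with none among the firing and clamp genes. Cdca7 was 2.95-fold higher (1.56 ± 0.16, adjusted p = 0.00241), with 9.58 and 9.39 in co-culture against 8.11 and 7.74 in mono-culture. Cdc6 was 2.13-fold higher (1.09 ± 0.15, adjusted p = 0.0074) and Rrm2 2.07-fold (1.05 ± 0.14, adjusted p = 0.00658). Tk1 was 1.77-fold higher (0.82 ± 0.15, adjusted p = 0.0176), Uhrf1 1.71-fold (0.77 ± 0.14, adjusted p = 0.0166) and Tyms 1.70-fold (0.77 ± 0.19, adjusted p = 0.0428). Pold2, at 10.22 and 10.27 in mono-culture DMSO, 10.46 and 10.41 in co-culture DMSO, 9.51 and 9.65 in mono-culture PLX4720 and 10.28 and 10.01 in co-culture PLX4720, was 1.48-fold higher under the drug (0.56 ± 0.14, adjusted p = 0.0396), and Orc6 1.47-fold (0.56 ± 0.14, adjusted p = 0.0424). In each of the 8, which were chosen by their test on these same arrays, the co-culture arrays lay above the mono-culture arrays without overlap, as in 27.5% of all genes. The second probes of Rrm2 and Tyms passed over all probes as well (0.97 and 0.60, adjusted p = 0.00918 and 0.0368), and that of Tk1 did not (0.99, adjusted p = 0.0653). Mcm2 (0.56, adjusted p = 0.0509) and Cdc7 (0.45, adjusted p = 0.0669) came next.

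**Figure D3:**
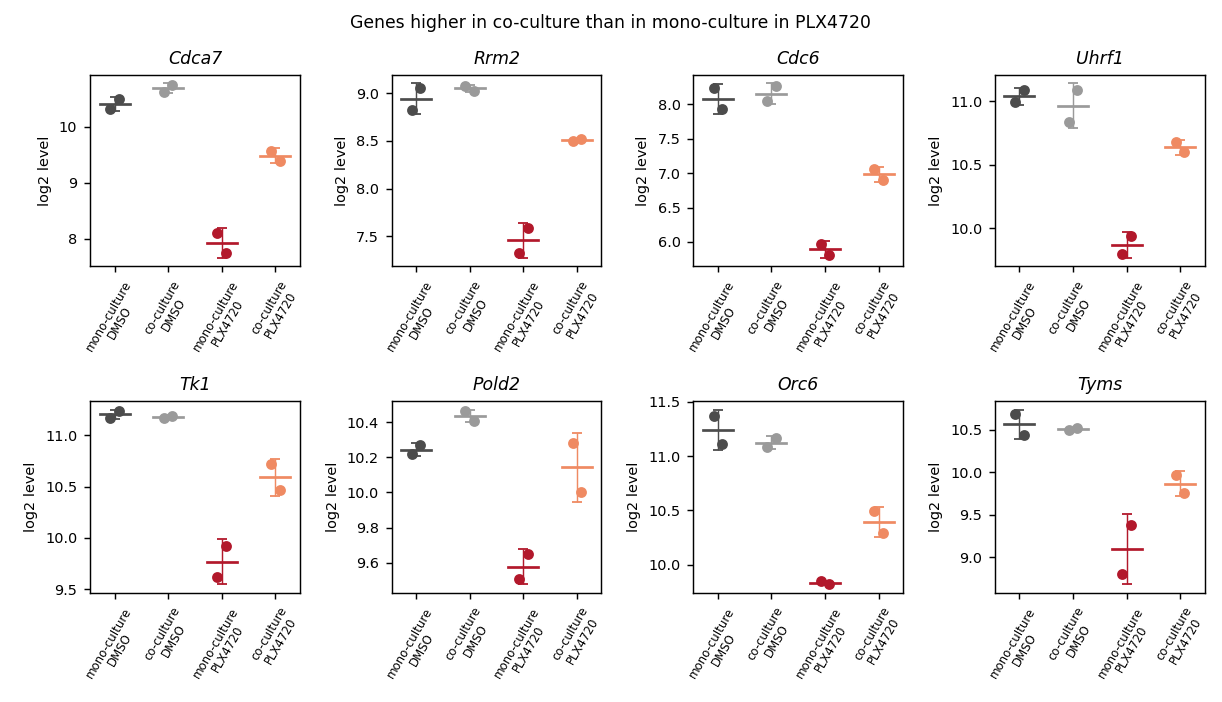
Log2 level of the 8 genes that were higher in co-culture than in mono-culture under PLX4720, with each of the 2 arrays per group as a point, the mean as a line and bars of 1 SD; each panel has its own axis. In every panel mono-culture PLX4720 is lowest and co-culture PLX4720 lies above it, as for Cdca7, where the drug arrays are at 8.11 and 7.74 in mono-culture and 9.58 and 9.39 in co-culture.

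Only the call for Cdca7 held when each array was left out. The count of 8 became 1 without co-culture PLX4720 replicate 1, 3 without mono-culture PLX4720 replicate 1, and 5 without mono-culture PLX4720 replicate 2 or either co-culture DMSO array. Cdc6 and Rrm2 lost their calls only without co-culture PLX4720 replicate 1 (adjusted p = 0.0631 and 0.0528). Without that array the adjusted p was 0.0976 for Uhrf1, 0.102 for Tk1, 0.159 for Pold2, 0.176 for Orc6 and 0.199 for Tyms, and without mono-culture PLX4720 replicate 1 it was 0.0618, 0.0699, 0.147, 0.125 and 0.172 for the same 5 genes. All 8 stayed above 0 in each case. Mono-culture PLX4720 replicate 1 is also the array with the highest summed fibroblast markers, and the part of this in the difference was not tested beyond leaving the array out. A linear sum weighs bright genes most, and no fibroblasts had been added to that culture. The log2 fold changes of these markers for PLX4720 in mono-culture ran from 0.16 to 3.93, with a median of 0.98.

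**Figure D4:**
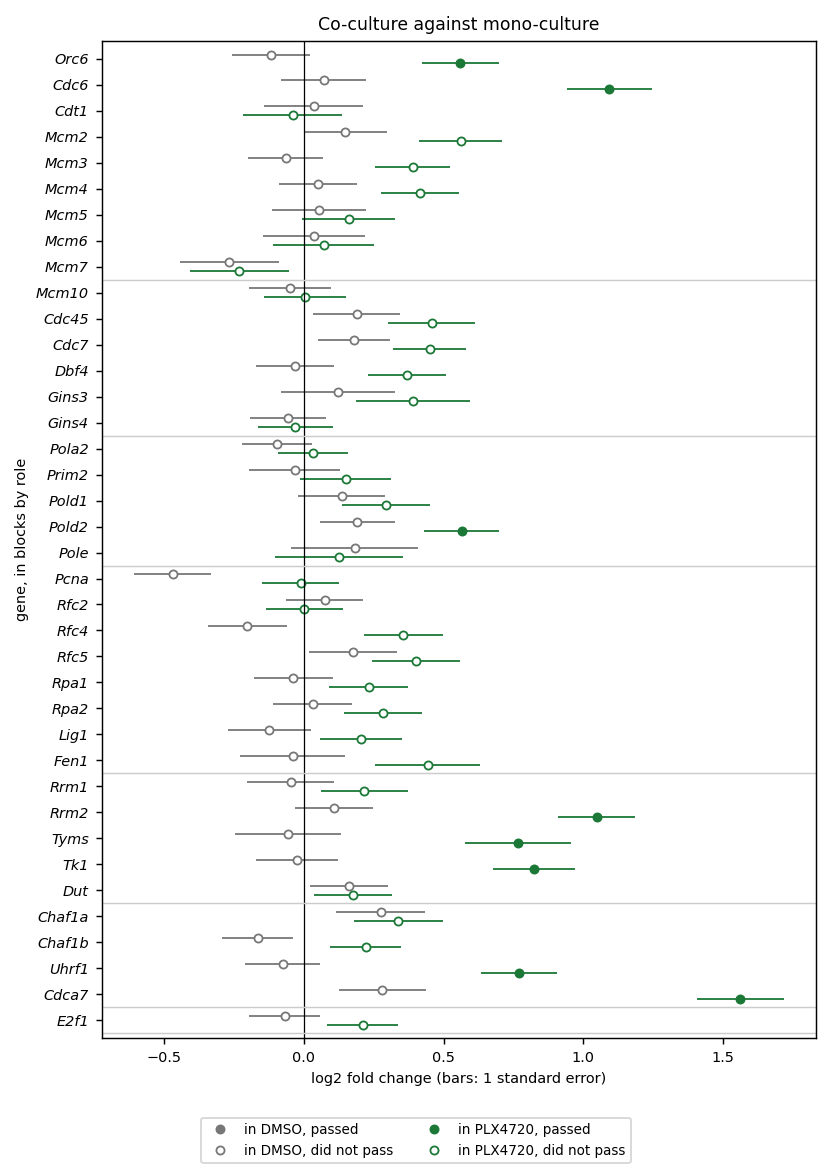
Log2 fold change of co-culture against mono-culture for each of the 38 genes (rows, in blocks by role) in DMSO (grey) and in PLX4720 (green), with bars of 1 standard error, filled where the adjusted p was under 0.05. Grey points lie around 0 and none is filled, while 34 of the green points lie above 0 (2 of the 38 signs turn with median scaling and up to 6 with an array left out) and 8 are filled, led by Cdca7.

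The test of whether the PLX4720 effect itself differed between the cultures called none of the 38 genes (limma), beside 0.122% of all genes, and 10 at an unadjusted p under 0.05, all with a smaller fall in co-culture, a direction that 8.62% of all genes took at that p. The difference of the log2 fold changes, co-culture minus mono-culture, had a median of 0.27, and 35 of 38 were above 0, beside 49.8% of all genes (3 signs turned with median scaling, which put the median of these genes at 0.47 and that of all genes at 0.16, 1 with no background correction, an offset of 50, the authors' log2 values or the mean of probes, and 1 to 7 with an array left out, the most without mono-culture DMSO replicate 2). It was largest for Cdca7 (1.28 ± 0.22, adjusted p = 0.0561), then Cdc6 (1.02 ± 0.22, adjusted p = 0.0795), Rrm2 (0.94 ± 0.20, adjusted p = 0.0777), Tk1 (0.85 ± 0.21, adjusted p = 0.0991) and Uhrf1 (0.85 ± 0.19, adjusted p = 0.0853). Tyms (0.82, adjusted p = 0.184), Orc6 (0.68, adjusted p = 0.145) and Rfc4 (0.56, adjusted p = 0.213) followed. For Dut, Mcm10, Mcm7, Gins4, Mcm6 and Chaf1a the difference was between 0.01 and 0.06 on the brightest probe. Kept probes of Lig1, Mcm4 and Mcm6 differed in sign here. Mcm6 probe ILMN_1233857 was at -0.52 and Mcm4 probe ILMN_2752009 at -0.42 (adjusted p over probes = 0.284 and 0.515, limma). The second Mcm10 probe was at 0.18. The call for Cdca7 turned on the processing, with an adjusted p of 0.014 when an offset of 50 was added in the background step in place of 16. That a fall passed in mono-culture and not in co-culture, as for Uhrf1 or Mcm2, is therefore not a shown difference between the cultures.

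Replication genes outside the set also fell in PLX4720. Of 25 measured origin and fork genes, 18 fell and none rose in mono-culture, with a median of -0.79, and 13 fell in co-culture, with a median of -0.46. Of all genes, 18.6% fell in mono-culture and 12.7% in co-culture. Examples were Clspn, the adaptor of the fork checkpoint (-1.30 and -0.70, adjusted p = 0.00032 and 0.0113), Nasp, a histone chaperone (-1.23 and -0.92, adjusted p = 0.000313 and 0.0022), and Donson, a replisome factor (-1.20 and -0.87, adjusted p = 0.000472 and 0.00387). Pole4, a small subunit of polymerase epsilon, fell in mono-culture (-0.88, adjusted p = 0.000473), was at 0.05 in co-culture (adjusted p = 0.785) and was 2.04-fold higher in co-culture than in mono-culture under the drug (adjusted p = 0.0044). Of 24 other nucleotide synthesis genes, 16 fell in mono-culture, and in co-culture 13 fell and 1, Samhd1, rose (1.49-fold, adjusted p = 0.024). Shmt1, which feeds the folate cycle used by Tyms, fell 4.53-fold and 3.74-fold (adjusted p = 0.000123 and 0.000379) and was detected on 1 of the 2 mono-culture PLX4720 arrays. Dctd, which makes the substrate of Tyms, fell 3.98-fold and 2.51-fold (adjusted p = 7.83e-06 and 8.42e-05) and was 1.89-fold higher in co-culture than in mono-culture under PLX4720 (adjusted p = 0.00648). Ppat and Umps, of purine and pyrimidine synthesis, fell 2.63-fold and 2.24-fold in mono-culture (adjusted p = 7.41e-05 and 0.000258). Of 9 DNA damage response genes, 5 fell in mono-culture and 4 in co-culture, Msh6, of mismatch repair, by 2.42-fold and 1.73-fold.

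Upstream of the set, 6 of 13 G1 cyclin, kinase and inhibitor genes (46.2%) fell in mono-culture and 2 (15.4%) rose. Of all genes, 18.6% fell and 20.2% rose there, so the share that rose was below that of all genes. The 2, named after their values were seen, were the inhibitors Cdkn1b (p27, 4.32-fold, adjusted p = 0.0152) and Cdkn2c (p18, 1.85-fold, adjusted p = 0.00353). In co-culture none of the 13, these inhibitors included, passed as higher, and the highest log2 fold change was 0.76. There 5 (38.5%) fell, while of all genes 12.7% fell and 14.3% rose. Ccne2, a cyclin E, was detected on no mono-culture PLX4720 array, which gives only bounds against the lowest detected signal. It fell at least 2.69-fold in mono-culture and 2.95-fold in co-culture (adjusted p = 4.74e-06 and 5.04e-05), and was at least 1.20-fold higher in co-culture than in mono-culture under the drug (adjusted p = 0.00367). Ccnd1, cyclin D1, which is also on the list of ERK output below, fell 3.73-fold and 2.52-fold, and Ccne1 2.39-fold and 1.65-fold. Both were higher in co-culture under PLX4720, 1.55-fold and 1.62-fold (adjusted p = 0.0304 and 0.036). Skp2, which targets the inhibitor p27 for breakdown, fell 2.34-fold and 1.65-fold. Of 9 E2F and pocket protein genes, 5 fell in mono-culture and 2 (22.2%) in co-culture, where 12.7% of all genes fell. E2f2 fell 2.68-fold and 2.36-fold (adjusted p = 6.96e-05 and 0.000203) and Rbl1, the pocket protein p107, 2.06-fold and 1.61-fold. No gene of these lists passed the test of the difference between cultures or the DMSO comparison.

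The share of mitotic genes that fell was not above that of all genes. With 9 measured, the count cannot show that they differ from all genes. Of 16 listed, 9 were measured, and Ccnb2, Bub1, Cenpe and Ttk were detected on no array. Of the 9, 1 (11.1%) fell in each culture, beside 18.6% of all genes in mono-culture and 12.7% in co-culture. It was Cdk1 (-0.59 and -0.60, adjusted p = 0.0042 and 0.00586). The list median was -0.10 in mono-culture and -0.07 in co-culture. Nusap1, a spindle protein, was at 0.28 and 0.34 (adjusted p = 0.197 and 0.145), and Kif11, a spindle motor, at -0.22 and 0.12 (adjusted p = 0.339 and 0.638). No test compared these lists with the replication genes.

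**Figure D5:**
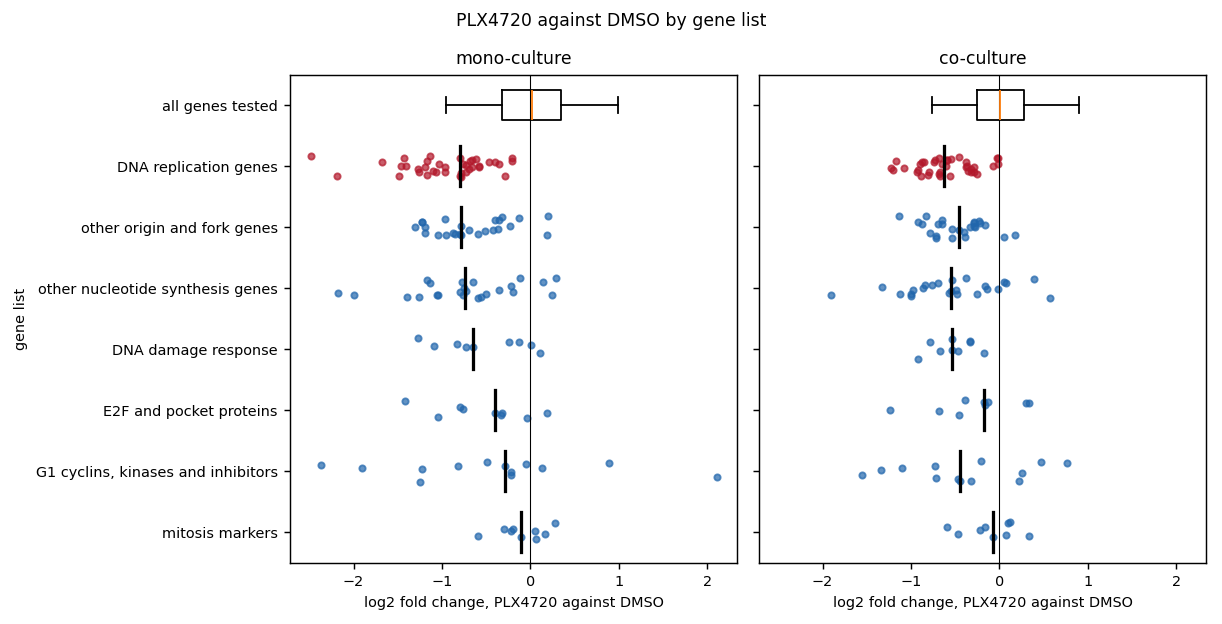
Log2 fold change of PLX4720 against DMSO in mono-culture (left) and co-culture (right) for the genes of each list, with 1 point per gene and the list median as a bar; for all 7357 genes a box gives the median and quartiles and whiskers the 5th to 95th percentile. The replication list (red) and the fork and nucleotide lists lie mostly below 0, with medians from -0.80 to -0.74 in mono-culture, and the mitosis list lies around 0.

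Genes known to report ERK output stood beside these changes. Of 13 measured, 10 fell in mono-culture, against 18.6% of all genes. Etv4 was at least 10.7-fold and Fosl1 at least 7.83-fold lower there, since neither was detected on the drug arrays of that culture. In co-culture 9 fell and Egr1 rose, against 12.7% of all genes that fell and 14.3% that rose. There Fosl1 was 4.33-fold lower and Etv4 10.8-fold lower, the latter detected on 1 of 2 drug arrays. Under PLX4720, 6 were higher and 1 lower in co-culture than in mono-culture, against 3.89% and 3.47% of all genes. Among the higher ones were Fosl1 (at least 2.01-fold, adjusted p = 0.00658) and Spry4 (at least 1.26-fold, adjusted p = 0.0425), and the lower one was Dusp4 (adjusted p = 0.0222). Their summed level on the linear scale was 31860 and 33860 on the mono-culture DMSO arrays, 36380 and 36150 in co-culture DMSO, 13750 and 10750 in mono-culture PLX4720 and 23230 and 21010 in co-culture PLX4720. The order of the groups under the drug is that of the median of the replication genes, and the part of either in the other was not tested. The 7 fibroblast markers moved the other way with PLX4720, with 6 of them higher in each culture. Of all genes, 20.2% were higher in mono-culture and 14.3% in co-culture. Between the cultures none was called under the drug, and 2, Acta2 and Col3a1, were lower in co-culture in DMSO, as were 1.03% of all genes. Acta2, smooth muscle actin, was 15.2-fold higher in PLX4720 than in DMSO in mono-culture, where no fibroblasts had been added.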

How the data were processed

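RNA of 8 samples was hybridised to Illumina mouse BeadChips. The authors deposited mean bead intensities per probe, neither normalized nor background subtracted, and per the file headers a detection p-value for each probe and array. They also deposited log2 values. Quantile normalization of the raw intensities, with no background step, gave the same numbers, and the submitters' processing notes name lumi. Columns were mapped by sample titles, with none left over.

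Intensities were background corrected, log2 transformed and quantile normalized with neqc of limma 3.58.1 (R 4.3.3, offset 16). Of 25697 probes, 23978 had 1 gene symbol in the platform annotation, none had several and 1719 had none, and 23962 matched RefSeq. Probes detected at p under 0.01 on at least 2 of 8 arrays were kept (10660, of which 10039 named, for 7357 genes). The probe with the highest mean stood for its gene. Group means were fitted to all 8 arrays with lmFit and eBayes (4 residual and 5.51 prior degrees of freedom), with 5 comparisons, Benjamini-Hochberg adjustment over all genes and a threshold of 0.05. Fold changes are on the log2 scale of intensities with the offset and understate changes of dim genes. A gene not detected in 1 of 2 groups gets only a bound, set against the lowest detected signal.

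Values on every array are given for up to 8 genes with the smallest p in each comparison for the smallest p of each role in PLX4720 against DMSO in mono-culture and for genes that moved against the majority at an unadjusted p under 0.05, and up to 4 genes are named per other list by their p in the same comparison, with genes named beyond that chosen after their values were seen. The genes and lists were chosen with earlier results of these data known. Alternatives were other background corrections, scalings, filters and probe choices, array weights, the replicate block, each array left out and the methods' t-test. The code was tested on simulated data. Figures were drawn with matplotlib 3.10.9 in Python 3.11.15.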

Additional observations from a re-analysis of the deposited data

How the results depend on the processing

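No called gene changed sign under any setting tried, but sizes did change. The mono-culture fall of Cdc6 ran from -2.35 to -1.10 over the settings, and from -2.35 to -2.04 with an array left out. Its smallest value was near that of Mcm3 (-1.11). The fall of Pcna in mono-culture ran from -1.41 to -0.51. Cdc6 in co-culture against mono-culture under PLX4720 ran from 0.45 to 1.18. In co-culture against mono-culture under PLX4720, where 8 genes passed, 5 passed without the filter on dim probes, 5 with array weights, 5 when only the arrays of the groups compared were fitted and 0 with the t-test after Benjamini-Hochberg (8 before it). Leaving out each array gave 1 to 9. For PLX4720 against DMSO, leaving out each array gave 14 to 24 in co-culture (24 in all) and 27 to 35 in mono-culture (34 in all), and the t-test gave 0 in each after adjustment (26 and 25 before it). In the difference of the drug effect between cultures, where none passed, 4 passed without background correction, 4 with an offset of 50 and 4 with the authors' log2 values (Cdca7, Uhrf1, Tk1 and Rrm2 each time), 2 with median scaling (Cdca7 and Cdc6), 1 with detection required on all 8 arrays, 1 with the replicate block and 0 to 1 with each array left out. The cause of these shifts was not tested. In co-culture against mono-culture in DMSO the count was 0 under all 20 alternatives (at an unadjusted p under 0.05, 1 by limma and 2 by the t-test). The replicate numbers of the labels name no shared culture. Deviations of same-numbered arrays correlated at -0.0837 to 0.09 over all genes and at -0.309 to 0.186 over the replication genes. With 2 arrays a group this cannot settle whether same-numbered samples share a culture or a batch. With the replicate block the counts were 34 and 24 for PLX4720 in mono-culture and co-culture, 0 for co-culture in DMSO and 7 under PLX4720, where Tyms was lost (adjusted p = 0.0505). Median scaling removed 6 calls of PLX4720 in co-culture, among them Rrm2 (adjusted p = 0.118) and Rfc5 (adjusted p = 0.145), leaving 18. Median raw intensity of detected probes was 3.26 to 3.89 times that of undetected ones per array, which limits the size of changes that dim probes can show. Dut and Gins3 were not detected on all arrays.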
